A study of Homo sapiens with 12 samples.

Results

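Complexes II, III, IV and V of the mitochondrial respiratory chain were followed through nuclear genes of their subunit families, in THP1 cells stimulated with lipopolysaccharide (LPS). Gene symbols of the SDHA to SDHD, CYC1, UQCR, COX4 to COX8 and ATP5 families were taken from the count table. Symbols of pseudogenes, which end in P and a number, were dropped, and a gene was kept when it had at least 10 counts in each of the 12 libraries. This left 44 genes of the 58735 rows, of which 4 belong to complex II, 10 to complex III, 11 to complex IV and 19 to complex V. Of 51 candidate genes that are not pseudogenes, 7 fell below the minimum. The families also hold a coupling factor (ATP5S), an inhibitor (ATP5IF1) and a supercomplex factor (COX7A2L), which were counted as members.

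THP1 is a human leukemia line of monocytic type, given as wild type, so that the 12 libraries represent 1 cell line. The 4 groups of 3 libraries were mono-culture (24 h) and co-cultures of the same length, which held control ECs, senECs or, in the last group, EGCG-treated senECs. Human umbilical vein endothelial cells (HUVECs, here ECs) lay below an insert with 1 µm pores. Control ECs had received the solvent DMSO. The topoisomerase inhibitor Etoposide (10 µM, 24 h) was used to make senECs, and EGCG (epigallocatechin-3-gallate, a green tea catechin) at 100 µM for a further 24 h made EGCG-treated senECs. Every THP1 group, mono-culture included, was kept in endothelial medium and then given LPS (100 ng/ml) for 2 h, so that no group lacked LPS. Senescence in this model was induced by a drug. Nothing in the labels says whether the 3 libraries of a group came from separate cultures, so that p-values measure the spread between these libraries only, which may be technical.

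In the respiratory chain, complex II (succinate dehydrogenase) passes electrons from succinate to ubiquinone, complex III passes them on to cytochrome c, and complex IV (cytochrome c oxidase) passes them to oxygen. Complexes III and IV pump protons across the inner mitochondrial membrane, and complex V (ATP synthase) uses the returning protons to make ATP. Complex II is encoded by nuclear genes alone, whereas complexes III, IV and V also hold subunits encoded by mitochondrial DNA. In activated macrophages, succinate dehydrogenase and respiration are known to bear on the inflammatory response.

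Total counts per library ranged from 15439836 to 22092600. Levels are given as CPM (counts scaled to 1000000 per library) scaled by TMM, edgeR's correction for library composition. They are shares of a library, so that neither the number of cells nor the RNA per cell can be read from them. The 8 monocyte markers, among them CD14, CD33, LYZ and SPI1, were found in every group. Of the 12 endothelial markers, CDH5, which defines these cells, had 0 to 1 counts per library, and SOX17 had 0 in every library. The summed endothelial markers ranged from 131 to 160.2 CPM with control ECs and from 171 to 212 CPM with senECs (marker sums are not TMM-scaled). PECAM1, which monocytes also express, carried this sum, since the other 11 markers summed to 3.08 to 7.29 CPM with control ECs and 3.97 to 4.5 CPM with senECs. The monocyte markers summed to 583 to 685 CPM with control ECs and 624 to 791 CPM with senECs. The part of this shift in the results below was not tested. One library stood apart. The senEC library numbered 5 had the lowest TMM factor (0.912, against 0.957 to 1.04 in the others) and the highest level of 43 of the 44 members among all 12 libraries. Fold changes of members and medians of gene lists that involve senECs are therefore also given without it. For the lists, transcript length, promoter letters and group order, this alternative was chosen after seeing the data.

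Short promoter stretches are shown because the nuclear respiratory genes are classically known to share binding sites of a few factors, namely NRF1, GABP of the ETS family and YY1. RefSeq promoters (GRCh38.p14, 250 bases before to 50 after the gene start) were matched for 34 of the 44 members. Capitals mark the NRF1 letters (the run of 10 in SDHD and ATP5F1C), CCGGAAG (ETS) or AAGATGGC (YY1) on either strand, so that CTTCCGG is an ETS match on the opposite strand. In order, the stretches lie at chr1:17054113-17054172 (minus strand), chr11:112086753-112086812 (plus strand), chr19:1605533-1605592 (minus strand), chr2:97646012-97646071 (plus strand), chr11:63974570-63974619 (plus strand), chr10:7788117-7788176 (plus strand) and chr21:25735065-25735124 (minus strand). All bases shown lie before the RefSeq gene start, except the last 10 of COX5B.
SDHB: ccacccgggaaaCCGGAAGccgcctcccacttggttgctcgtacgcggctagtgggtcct
SDHD: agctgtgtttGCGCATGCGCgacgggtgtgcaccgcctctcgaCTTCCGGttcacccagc
UQCR11: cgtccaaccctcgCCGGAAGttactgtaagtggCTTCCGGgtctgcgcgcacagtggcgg
COX5B: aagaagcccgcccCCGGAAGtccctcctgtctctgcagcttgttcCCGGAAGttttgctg
COX8A: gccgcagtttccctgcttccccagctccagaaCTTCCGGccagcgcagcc
ATP5F1C: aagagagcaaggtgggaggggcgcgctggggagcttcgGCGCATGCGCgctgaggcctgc
ATP5PF: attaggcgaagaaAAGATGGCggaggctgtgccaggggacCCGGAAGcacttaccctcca

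The ETS letters CCGGAAG were present in 15 of the 34 promoters (44.1%) and in 10.67% of all 27305 RefSeq promoters of this length. In complex IV, 5 of 10 promoters held them, and in complex V 5 of 14. The full NRF1 letters were in 2 of the 34 (5.9%, against 1.36% of all promoters), those of SDHD and ATP5F1C. With the 2 middle bases left open, a pattern that contains the full letters, 10 of 34 matched (29.4%, against 8.78%), of which 4 of 7 were in complex III and 0 of 10 in complex IV. AAGATGGC was found in 5 of 34 (14.7%, against 3.03%), and GGGCGG, the SP1 letters, in 21 of 34 (61.8%, against 44.59%). CCAAT was in 14 of 34 (41.2%, against 35.7%) and TATAAA in 3 of 34 (8.8%, against 11.95%). These are matches of letters in a window, and no binding was measured.

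Levels per transcript length spanned a wide range, with the F1 catalytic subunit beta gene ATP5F1B at 538 CPM per kilobase (mean over 12 libraries) and ATP5S, the coupling factor B gene, at 2.07. In complex III the highest was UQCRH, the hinge protein, at 501 CPM per kilobase, followed by the cytochrome c1 gene CYC1 at 274, and the lowest was UQCRHL at 2.67. COX4I1, the largest nuclear subunit of complex IV, stood at 457 CPM per kilobase, and COX7A2L, a factor that joins complexes III and IV in supercomplexes, was the lowest of complex IV at 57.2. Complex II genes were SDHB at 78.3, SDHD at 56, SDHA at 55.4 and SDHC at 8.6 CPM per kilobase. The length is that of a typical principal transcript. It was 13566 bases for SDHC, 10212 for ATP5S and 5575 for UQCRB, so that the levels per length of these genes may be too low if the cells use shorter transcripts.

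**Figure D1:**
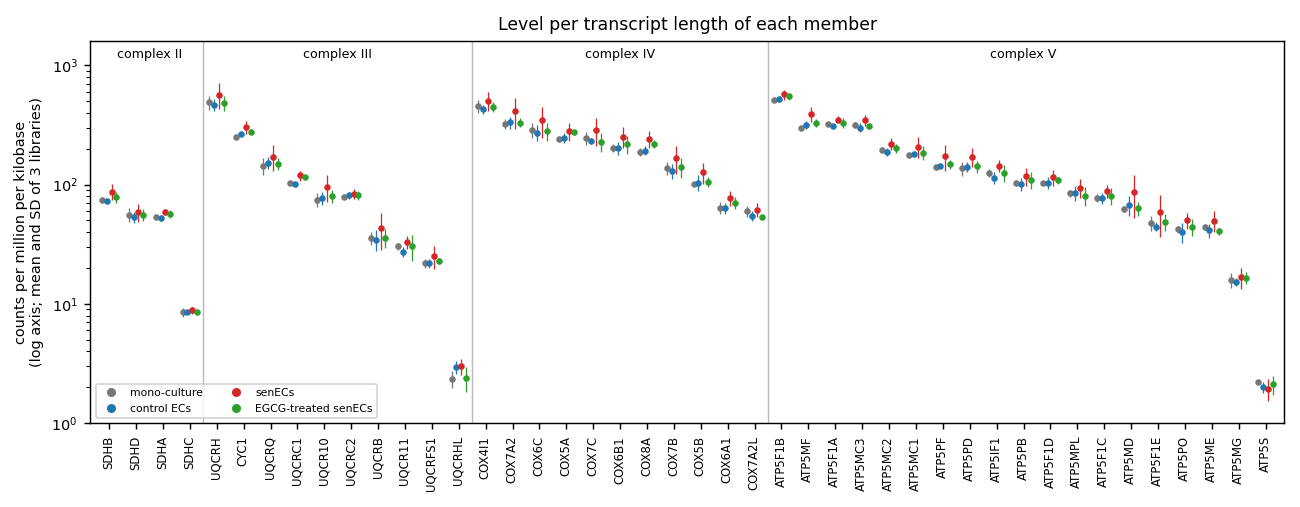
Mean level of each member in CPM per kilobase of transcript (log axis), ordered within its complex, with the SD over 3 libraries for each of the 4 groups. The groups of a gene lie close together compared with the spread between genes, from 538 (ATP5F1B) to 2.07 (ATP5S).

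For subunits that exist in alternative isoforms, THP1 expressed the widespread form. COX4I1, COX6A1, COX6B1, COX7A2, COX7B and COX8A were members, at 31.7 CPM or more. Their counterparts were below the minimum. The heart and muscle form COX6A2, the hypoxia-linked COX4I2 and COX7B2 had 0 counts in all 12 libraries. For a library taken alone, 0 counts allow an expected count of up to 3. Between 0 and 3 counts were found for COX8C, between 0 and 11 for the muscle form COX7A1 and between 1 and 30 for COX6B2. ATP5MGL had 0 to 9 counts. The member nearest the minimum was UQCRHL, with 70 to 153 counts. Among the genes left out, COX6B2 had the highest total, 90 counts over the 12 libraries.

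UQCRHL (chr1:15807169-15809348, GRCh38, minus strand) is an intronless copy of UQCRH (chr1:46303631-46316776, plus strand), and both coding sequences have 276 bases, of which 272 were equal (98.6%). A stretch of 90 coding bases that holds all 4 differences, in capitals, shows why reads of both genes can be confused. The UQCRHL count is therefore uncertain.
UQCRH: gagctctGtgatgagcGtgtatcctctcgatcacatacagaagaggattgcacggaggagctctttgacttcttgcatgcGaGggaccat
UQCRHL: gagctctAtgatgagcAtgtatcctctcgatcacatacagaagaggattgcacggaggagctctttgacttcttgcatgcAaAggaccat

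The 3 ATP5MC genes encode the same mature subunit c of the ATP synthase ring, and they differ in coding bases as the following 120 bases show, with differing positions in capitals. ATP5MC1 lies at chr17:48892765-48895871, ATP5MC2 at chr12:53632726-53677408 and ATP5MC3 at chr2:175176258-175184607 (GRCh38). Over the final 228 coding bases, ATP5MC1 and ATP5MC2 were equal at 203 (89.0%) and ATP5MC3 equalled each of them at 185 (81.1%).
ATP5MC1: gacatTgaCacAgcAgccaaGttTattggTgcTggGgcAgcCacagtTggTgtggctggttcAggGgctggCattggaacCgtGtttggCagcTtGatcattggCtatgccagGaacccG
ATP5MC2: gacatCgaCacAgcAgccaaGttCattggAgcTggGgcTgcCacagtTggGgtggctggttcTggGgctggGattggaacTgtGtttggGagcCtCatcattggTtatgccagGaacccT
ATP5MC3: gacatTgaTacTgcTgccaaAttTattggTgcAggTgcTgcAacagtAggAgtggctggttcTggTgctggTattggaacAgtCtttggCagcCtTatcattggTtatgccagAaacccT

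The order of the 3 was the same in the group means per length. Over the 12 libraries, ATP5MC3 stood at 318, ATP5MC2 at 201 and ATP5MC1 at 187 CPM per kilobase, and the libraries of ATP5MC2 and ATP5MC1 overlapped. In senECs against control ECs their log2 fold changes were 0.20, 0.23 and 0.21, each with an SE of 0.10 to 0.13. Without senEC library 5 they were 0.11, 0.14 and 0.043.

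The first comparison asks whether THP1 cells differ after co-culture with senECs instead of control ECs. Members of all 4 complexes were at slightly higher levels with senECs, but no member passed the test. The log2 fold change was above 0 for 43 of the 44 members, against 49.2% of all 25873 genes tested, with a median of 0.24 (all genes -0.01). The medians were 0.15 for complex II, 0.22 for complex III, 0.30 for complex IV and 0.22 for complex V. edgeR's quasi-likelihood test with Benjamini-Hochberg adjustment over all genes called 0 of 44 members, where percent called was 0.0 among all genes, and the smallest adjusted p of a member was 0.728. At an unadjusted p under 0.05 there were 13 members, all higher, against 2.86% of all genes higher. DESeq2 also called 0 members, with 8 at an unadjusted p under 0.05.

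Levels with senECs did not overlap those with control ECs for 10 members, all higher (5.31% of all genes). They were SDHA, SDHB, CYC1, UQCRC1, COX6A1, COX8A, ATP5F1A, ATP5MC3, ATP5MF and ATP5IF1. SenEC library 5 was the highest library for each of them. Leaving out the highest library cannot create an overlap, and the same 10 remained without it (9.3% of all genes).

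Among single libraries, the size of the difference depended most on senEC library 5. Since that library was the highest for 43 of the 44 members, leaving it out was bound to lower their fold changes. Without it, the median was 0.08, 36 members were higher, and 0 had an unadjusted p under 0.05. The complex medians were then 0.06, 0.05, 0.09 and 0.08 for II, III, IV and V. Without control EC library 2, the lowest of its group for 38 of 44 members, the median was 0.17 and 0 members had an unadjusted p under 0.05. The 13 members at an unadjusted p under 0.05 became 28 without senEC library 1, 21 without senEC library 2 and 18 without control EC library 3. They became 8 without control EC library 1 and 6 without mono-culture library 2 or 3. Other filters also moved this count, to 23 with all genes that have a count and 7 with at least 10 counts in every library. With the 6 libraries compared alone it was 5. Matching shares of all genes are not given for these settings or for DESeq2. The counts therefore show how the fit moved and are not read as results about the members.

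**Figure D2:**
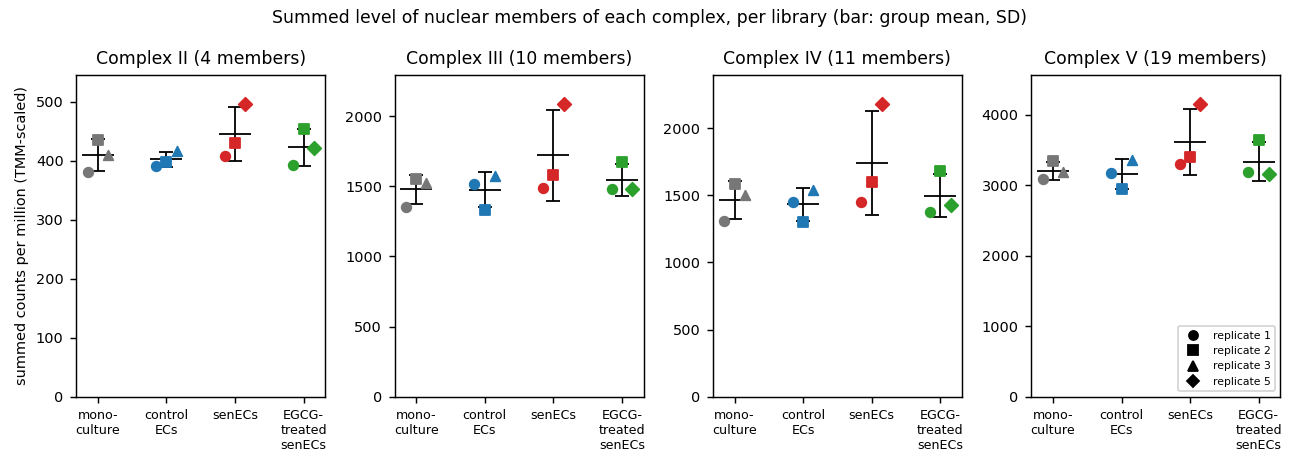
Summed CPM of the members of each complex in each library (symbols by replicate number), with group mean and SD (n = 3). The senEC library numbered 5 is the highest in all 4 panels, and the other 2 senEC libraries lie within or near the range of the other groups.

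The summed level of complex II was 392, 398 and 417 CPM in the 3 control EC libraries and 408, 431 and 497 CPM in the senEC libraries numbered 1, 2 and 5. Complex III summed to 1517, 1335 and 1573 CPM with control ECs and 1490.4, 1583 and 2089 CPM with senECs. For complex IV the sums were 1454, 1299.7 and 1544 CPM and 1451, 1597 and 2183 CPM. Complex V summed to 3177, 2945 and 3366 CPM with control ECs and 3299.6, 3398 and 4158 CPM with senECs. Group means were 3162 ± 211 CPM and 3618 ± 470.0 CPM (SD, n = 3), and the groups overlapped. In each of the 4 complexes, senEC library 1 lay inside the range of the control ECs.

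Complex II is the one complex with no mitochondrially encoded part. Values of a group follow its library numbers, 1, 2 and 5 in both senEC groups and 1, 2 and 3 elsewhere. SDHA, the flavoprotein subunit that binds succinate, was at 127, 130.5 and 125 CPM in mono-culture, 131, 118 and 128 with control ECs, 134, 137 and 151 with senECs and 132, 147 and 129 with EGCG-treated senECs. All 3 senEC values were above the control EC values, by a small margin (edgeR adjusted p = 0.734 over 12 libraries, log2 fold change 0.16 ± 0.09 (SE), or 0.11 without senEC library 5). SDHB, the iron-sulfur subunit, was at 80.8, 89.5 and 85.7 CPM in mono-culture, 80.3, 86.6 and 86.3 with control ECs, 90.4, 93.5 and 118 with senECs and 81, 101 and 90.4 with EGCG-treated senECs (log2 fold change 0.25 ± 0.11 (SE), or 0.12 without senEC library 5, for senECs vs control ECs, with an unadjusted p = 0.0364 over 12 libraries). Its highest value was that of senEC library 5, and the other senEC values exceeded the highest control EC value by less than 10 CPM.

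The membrane anchors SDHC and SDHD, which hold the ubiquinone site, overlapped between all groups. SDHC was at 113, 115 and 118 CPM with control ECs and 112, 120.2 and 127 with senECs (log2 fold change 0.05 ± 0.10 (SE), or 0.0073 without senEC library 5). SDHD was at 67.5, 79.1 and 84.3 CPM with control ECs and 72.5, 80.1 and 101 with senECs (log2 fold change 0.14 ± 0.14 (SE), or -0.012 without senEC library 5). Over the 12 libraries, the 95% intervals of these differences were -0.15 to 0.25 and -0.15 to 0.42.

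In complex III, UQCRC1, a core protein, was at 199, 215 and 205 CPM in mono-culture, 200.4, 192 and 207 with control ECs, 223, 225 and 262 with senECs and 228, 234 and 220.5 with EGCG-treated senECs. Its libraries were the least variable of the 44 members (pooled SD of 0.08 on the log2 scale), and the senEC values lay above the control EC values (edgeR adjusted p = 0.728 over 12 libraries, log2 fold change 0.24 ± 0.09 (SE), or 0.16 without senEC library 5). The other core protein gene UQCRC2 overlapped (log2 fold change 0.04 ± 0.10 (SE), or -0.036 without senEC library 5). UQCRB, which takes part in ubiquinone binding, was at 193, 153 and 229.7 CPM with control ECs and 185, 199.9 and 337 with senECs. It had the highest fold change of complex III (log2 fold change 0.33 ± 0.19 (SE), or 0.0032 without senEC library 5) and the highest spread of all members (pooled SD 0.32), and only senEC library 5 lay above the control EC range. Without that library UQCR11 had the highest fold change of the complex (0.19). UQCRH was at 287, 244 and 311 CPM with control ECs and 272, 323 and 432 with senECs (log2 fold change 0.29 ± 0.15 (SE), or 0.084 without senEC library 5), with overlapping groups. The lowest fold change was that of UQCRHL (0.02, or -0.099 without senEC library 5), at 5.68 to 7.55 CPM with senECs.

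Complex IV had the highest median, 0.30, and 5 of its 11 members had an unadjusted p under 0.05. COX8A, a small subunit, was at 91.1, 103 and 91.2 CPM in mono-culture, 106, 89.9 and 96.8 with control ECs, 112, 111 and 147 with senECs and 113, 119 and 103 with EGCG-treated senECs. The 3 senEC values were above the 3 control EC values (edgeR adjusted p = 0.728 over 12 libraries, log2 fold change 0.34 ± 0.12 (SE), or 0.19 without senEC library 5). COX7B, another small subunit, had the highest fold change of the complex (log2 fold change 0.36 ± 0.17 (SE), or 0.12 without senEC library 5). It was at 57.9, 50 and 67 CPM with control ECs and 61.5, 65.4 and 97.1 with senECs, and senEC libraries 1 and 2 lay inside the control EC range. COX8A was the highest of the complex without senEC library 5.

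COX4I1 was at 286, 296 and 333 CPM with control ECs and 302, 345 and 428 with senECs (log2 fold change 0.23 ± 0.13 (SE), or 0.086 without senEC library 5). COX6A1 was at 38.9, 31.7 and 38 CPM with control ECs and 39.8, 41 and 51.3 with senECs and did not overlap (log2 fold change 0.28 ± 0.13 (SE), or 0.16 without senEC library 5). Its 2 pseudogene rows held 7.18% as many counts as COX6A1 itself, against at most 0.648% for any other member. The fold changes of COX6B1 and COX7A2 were 0.32 and 0.31, or 0.15 and 0.048 without senEC library 5. COX7A2L had the lowest of the complex (log2 fold change 0.17 ± 0.11 (SE), or 0.083 without senEC library 5).

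Among the 19 complex V members, ATP5F1E, the epsilon subunit of the rotor, had the highest fold change (edgeR adjusted p = 0.728 over 12 libraries, log2 fold change 0.40 ± 0.19 (SE), or 0.045 without senEC library 5). It was at 82.5, 76.5 and 91.1 CPM with control ECs and 79.1, 92.9 and 159 with senECs, so that senEC library 1 lay inside the control EC range, library 2 just above it and library 5 far above it. Without library 5 the highest of complex V was ATP5IF1. ATP5MF, subunit f of the membrane part, was at 92.8, 91.3 and 88.4 CPM in mono-culture, 95.9, 89.3 and 103 with control ECs, 105, 114 and 139 with senECs and 94.7, 109 and 97.7 with EGCG-treated senECs. Its senEC values lay above all control EC and mono-culture values (edgeR adjusted p = 0.728 over 12 libraries, log2 fold change 0.31 ± 0.11 (SE), or 0.19 without senEC library 5, all against control ECs). The exons of ATP5MF overlap those of the read-through gene ATP5MF-PTCD1 on the same strand.

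ATP5IF1 encodes the inhibitor that stops ATP synthase from running in reverse. It was at 59.1, 67.7 and 59.3 CPM in mono-culture, 63.6, 51.8 and 53.8 with control ECs, 64.3, 67.9 and 80.5 with senECs and 66.7, 68.2 and 50 with EGCG-treated senECs. With senECs it was above control ECs in every library but within 1 CPM of the highest control value in library 1 (edgeR adjusted p = 0.728 over 12 libraries, log2 fold change 0.33 ± 0.13 (SE), or 0.23 without senEC library 5). ATP5F1B was at 957, 903 and 1023 CPM with control ECs and 977, 998 and 1162 with senECs and overlapped (log2 fold change 0.12 ± 0.10 (SE), or 0.039 without senEC library 5). ATP5S, the only member with a log2 fold change below 0 over the 12 libraries (log2 fold change -0.05 ± 0.16 (SE), or -0.11 without senEC library 5), was at 20.3, 18.6 and 22.8 CPM with control ECs and 23, 15 and 21.5 with senECs.

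**Figure D3:**
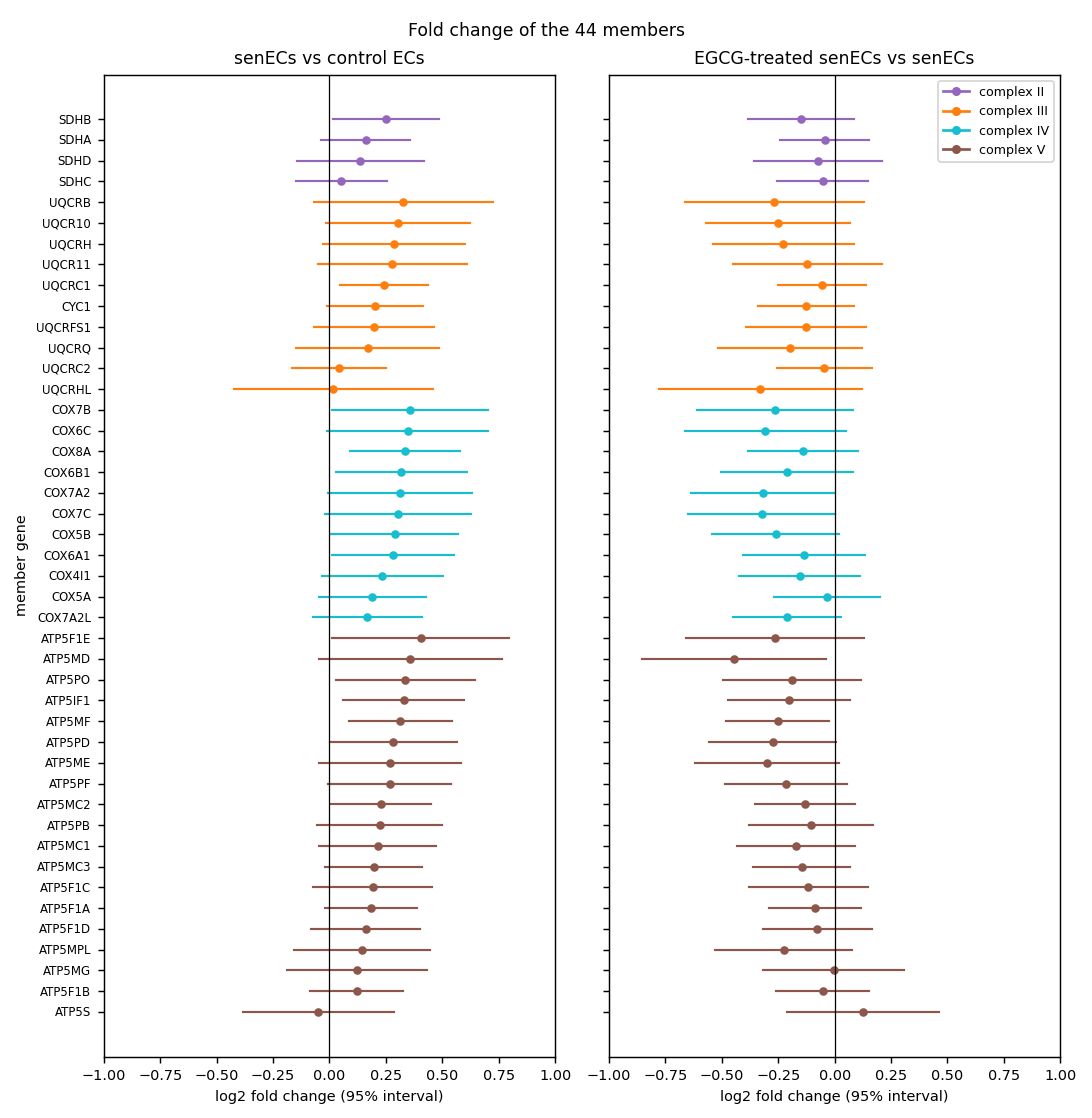
Log2 fold change of each of the 44 members with its 95% interval, by complex, for senECs vs control ECs (left) and EGCG-treated senECs vs senECs (right). On the left 43 points lie above 0, and 13 intervals exclude 0. On the right 43 points lie below 0, and 2 intervals exclude 0, before adjustment over all genes.

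The second comparison asks what EGCG treatment of senECs changed in the THP1 cells. It shares the senEC libraries with the first, so that an outlying senEC library moves both in opposite directions. Members were at slightly lower levels with EGCG-treated senECs. Of the 44, 43 had a log2 fold change below 0 and 1 above (49.9% of all genes were above), with a median of -0.16 (all genes 0.00). By complex the medians were -0.06, -0.16, -0.21 and -0.17 for II, III, IV and V. edgeR called 0 members (percent called 0.0), every adjusted p rounded to 1, and 2 members had an unadjusted p under 0.05 (0.982% of all genes lower). DESeq2 called 0, with 2 at an unadjusted p under 0.05.

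The 2 were ATP5MF and ATP5MD. ATP5MD, subunit k (DAPIT) of the membrane part, was at 36.8, 40.1 and 40.5 CPM in mono-culture, 39.8, 35.2 and 51.4 with control ECs, 40.2, 43.4 and 78.6 with senECs and 34.2, 44.7 and 40 with EGCG-treated senECs and had the lowest fold change of all members (log2 fold change -0.45 ± 0.19 (SE), or -0.075 without senEC library 5, with an unadjusted p = 0.0332 over 12 libraries). Only senEC library 5 lay outside the range of the EGCG-treated senECs, and without it the lowest of all members was UQCRHL (-0.21). For ATP5MF the log2 fold change was -0.25 ± 0.11 (SE), or -0.13 without senEC library 5. In complex IV the lowest was COX7C (log2 fold change -0.32 ± 0.16 (SE), or -0.087 without senEC library 5), at 151, 172 and 249 CPM with senECs and 134, 184 and 139 with EGCG-treated senECs, and the highest was COX5A (log2 fold change -0.03 ± 0.11 (SE), or 0.11 without senEC library 5). ATP5S again had the opposite sign (log2 fold change 0.13 ± 0.16 (SE), or 0.19 without senEC library 5). No member had groups without overlap in either direction, where 2.31% of all genes were lower without overlap. Without senEC library 5, COX5A alone did not overlap and was higher with EGCG-treated senECs (6.01% of all genes), and 0 members were lower (6.62%).

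Without senEC library 5, the median was -0.02, with 15 members higher and 29 lower and 0 at an unadjusted p under 0.05. Without senEC library 1 the median was -0.25, with 16 members at an unadjusted p under 0.05. That count was 12 without EGCG-treated senEC library 2, 6 without senEC library 2, 4 without mono-culture library 1 and 0 without EGCG-treated senEC library 1 or 5. It was 14 with all genes that have a count, 1 with at least 10 counts in every library and 0 with the 6 libraries compared alone. Here too, matching shares of all genes are not given, and the counts are not read as results about the members. With EGCG-treated senECs, complex II summed to 392, 454 and 422 CPM in the libraries numbered 1, 2 and 5, and complex III to 1480.4, 1674 and 1482 CPM. Complex IV summed to 1378, 1679 and 1431 CPM and complex V to 3191, 3651 and 3162 CPM. In every complex, these sums overlapped those of the senECs.

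**Figure D4:**
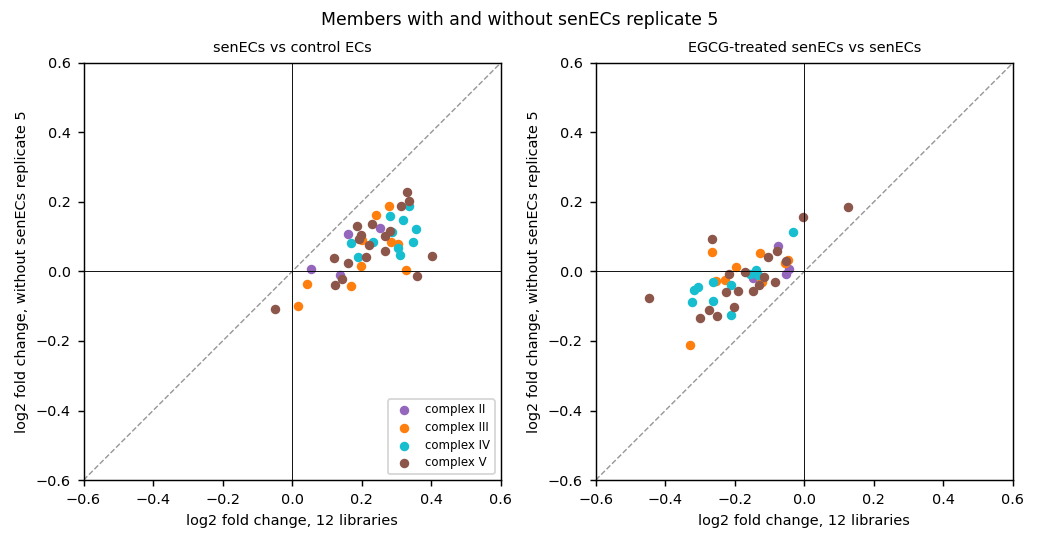
Log2 fold change of each member over 12 libraries (x) against that without senEC library 5 (y), for both comparisons, with the line of equal values dashed. Most points move towards 0 on the y axis, and the medians change from 0.24 to 0.08 and from -0.16 to -0.02.

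EGCG-treated senECs against control ECs gave a median log2 fold change of 0.07, with 35 members higher and 9 lower. edgeR called 0 members (percent called 0.0) and 0 had an unadjusted p under 0.05 (4.55% of all genes). DESeq2 also called 0, with 1 at an unadjusted p under 0.05. The fold changes ran from -0.31 (UQCRHL) to 0.20 (COX8A), and 38 of 44 differences were below the pooled SD of the libraries. With senEC library 5 included, that number was 10 in senECs vs control ECs and 27 in EGCG-treated senECs vs senECs. Against mono-culture it was 18 for senECs and 37 for EGCG-treated senECs. The 95% intervals of all members lay between -0.76 and 0.53, so that larger differences than these were outside the intervals of every member.

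Against mono-culture, control ECs gave a median of -0.02 with 17 members higher and 27 lower. edgeR called 0 members, against 0.143% of all genes, and 0 had an unadjusted p under 0.05 (6.52% of all genes). With DESeq2 0 were called, and 0 had an unadjusted p under 0.05. For 43 of 44 members the difference was below the pooled SD. Complex II stood at 409.5 ± 27.1 CPM in mono-culture and 402 ± 13 CPM with control ECs (SD, n = 3).

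With senECs against mono-culture, 43 members were higher (48.0% of all genes were), with a median of 0.22, and 0 were called by edgeR, against 0.309% of all genes. An unadjusted p under 0.05 was found for 12, all higher (5.76% of all genes). Another count, of members that did not overlap, was 11, all higher (8.18% of all genes). The same 11 did not overlap without senEC library 5 (12.1% of all genes). The lowest adjusted p was that of ATP5MF (edgeR adjusted p = 0.158 over 12 libraries, log2 fold change 0.40 ± 0.11 (SE), or 0.27 without senEC library 5), followed by COX8A (edgeR adjusted p = 0.235 over 12 libraries, log2 fold change 0.37 ± 0.12 (SE), or 0.22 without senEC library 5). Among the members DESeq2 called ATP5MF alone, with 347 of all 25873 genes called. Without senEC library 1, edgeR also called ATP5MF alone, with 260 of 25873 genes called. With all genes that have a count, edgeR called ATP5MF and ATP5MD, with 588 of 34767 genes called. Calls with a replicate block are given in the last section. Without senEC library 5 the median was 0.06, 34 members were higher and 2 had an unadjusted p under 0.05. The 12 at an unadjusted p under 0.05 became 23 without senEC library 1 and 16 without senEC library 2. They became 3 without mono-culture library 1, 8 without mono-culture library 2 and 6 without mono-culture library 3. Other filters gave 21 with all genes that have a count and 6 with at least 10 counts in every library, and the 6 libraries compared alone gave 7. Matching shares of all genes are again not given for these settings. EGCG-treated senECs gave a median of 0.04 against mono-culture, with 32 higher and 12 lower. Here edgeR called 0 members, against 0.213% of all genes, and 0 had an unadjusted p under 0.05 (8.58% of all genes). DESeq2 called 0 as well, with 0 at an unadjusted p under 0.05.

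Taking the group means of each member, senECs were the highest of the 4 groups for 43 members, and control ECs were the lowest for 22 and mono-culture for 17. When senEC library 5 is left out, senECs were the highest for 22 members, EGCG-treated senECs for 11, mono-culture for 6 and control ECs for 5.

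The fold changes went along with transcript length. Members are short, with a median transcript of 807.5 bases against 1821 for the 25555 tested genes with a length, and 26 of 44 were under 1000 bases. Across the 44 members, Spearman's rho between length and the log2 fold change was -0.52 for senECs vs control ECs and 0.45 for EGCG-treated senECs vs senECs. It was -0.40 and 0.45 without senEC library 5. These genes share the same libraries and are not independent. The median for senECs vs control ECs was 0.28 for the 26 shorter members and 0.18 for the 18 of at least 1000 bases, or 0.09 and 0.04 without senEC library 5. Over all genes, the trend of library level with length gave the members a median of 0.10 on the log2 scale in senEC library 5 and -0.04 to 0.02 in the other 11. With this trend taken out of each library, the median was 0.20 for senECs vs control ECs, with 43 members higher, 0 called and 6 at an unadjusted p under 0.05 in place of 13. The median of complex V was then 0.16.

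**Figure D5:**
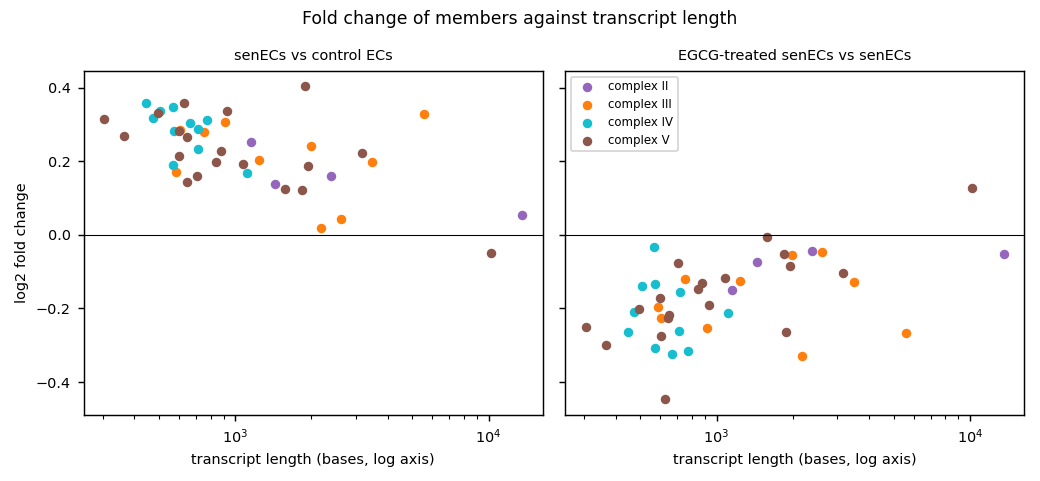
Log2 fold change of each member against transcript length in bases (log axis), coloured by complex, for senECs vs control ECs (left) and EGCG-treated senECs vs senECs (right). Shorter transcripts tend to have the larger differences, with a rho of -0.52 on the left and 0.45 on the right.

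By promoter, the 15 members with the ETS letters had a median of 0.28 in senECs vs control ECs and the 19 without them 0.22. They were 0.10 and 0.08 without senEC library 5. In EGCG-treated senECs vs senECs the medians were -0.20 and -0.17, or -0.02 and -0.03 without that library. These differences between promoter groups were not tested.

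Genes that work beside the members were read in the same fit, and none of the respiratory lists held a called gene. The 6 subunits of complexes III to V encoded by mitochondrial DNA all had a log2 fold change above 0 in senECs vs control ECs (median 0.24, or 0.18 and all 6 above 0 without senEC library 5), with 2 at an unadjusted p under 0.05, MT-CO2 (0.33) and MT-CO3 (0.29). In EGCG-treated senECs vs senECs, 5 of 6 were below 0 (median -0.06), or 2 of 6 (median 0.02) without senEC library 5. A list of 38 NDUF genes held nuclear complex I subunits and NDUFA4, which is now assigned to complex IV. Of these 38, 35 were higher with senECs than with control ECs (median 0.22). With EGCG-treated senECs 32 were lower than with senECs (median -0.15). These became 28 higher (median 0.07) and 21 lower (median -0.02) without senEC library 5.

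For assembly factors in senECs vs control ECs, the medians were 0.12 for the 4 factors of complex II, 0.17 for the 6 of complex III, 0.09 for the 25 of complex IV and 0.15 for the 5 of complex V. They were -0.09, 0.07, 0.03 and 0.0045 without senEC library 5. A mixed list of electron carriers, supercomplex factors and other genes had a median of 0.13 (9 of 10 higher). It held CYCS, HIGD1A, HIGD2A, PHB, PHB2, ETFA, ETFB, ETFDH, COQ7 and COQ9. The 13 regulators of respiratory genes had a median of 0.01 (7 higher). Among these, NRF1, TFAM and GABPA, the DNA-binding subunit of GABP, were at 0.00, -0.06 and -0.16. The TCA cycle enzymes had a median of 0.09 (12 of 13 higher), import factors and chaperones 0.23 (12 of 13) and glycolysis genes 0.14 (15 of 20). Without senEC library 5, the medians were 0.02 for the mixed list, -0.0059 for the regulators and 0.04 for the TCA cycle. They were then 0.02 for import factors and chaperones and 0.02 for glycolysis. The only gene of these lists that passed the test in any of the 6 comparisons was the glucose transporter SLC2A1 of the glycolysis list, which rose with control ECs against mono-culture (log2 fold change 0.54 ± 0.10 (SE), edgeR adjusted p = 0.0231). This call was lost without mono-culture library 2 or 3 or without any 1 of the control EC libraries (adjusted p from 0.0866 to 0.205). Of the markers, CD14, a co-receptor for LPS, rose with senECs against mono-culture (log2 fold change 2.09 ± 0.42 (SE), edgeR adjusted p = 0.0363). Without senEC library 5 it was at 1.44 (edgeR adjusted p = 0.251), and the call was also lost without senEC library 2, any 1 mono-culture library, control EC library 2 or EGCG-treated senEC library 2 (adjusted p from 0.0508 to 0.162). The filter of at least 10 counts in every library (edgeR adjusted p = 0.0779) and the 6 libraries compared alone (edgeR adjusted p = 0.0793) lost it too. Against mono-culture, CD14 was also above 0 with control ECs (log2 fold change 1.07) and with EGCG-treated senECs (1.62), where it was not called.

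Reads shared with other genes limit some values. Pseudogene rows of these families held 0.0978% as many counts as the members. Exons of 11 members overlap another gene on the same strand and those of 17 a gene on the opposite strand, while 21 overlap none in GENCODE 29. Since the sources used here do not state whether counting used strand, the values of the overlapping members, among them SDHC, SDHD, COX4I1, COX8A, ATP5F1E, ATP5MD and ATP5S, are less certain.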

How the data were processed

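RNA from THP1 cells (mono-culture or co-culture, 3 libraries per group, 12 in all) was sequenced as paired reads. The authors deposited raw counts per gene symbol in 1 table of 58735 rows, without normalization. Per the labels, the processing notes name HISAT2 and hg38. The counter and the use of strand are not given in the sources used here. A further 4 columns, 1 of them named like the senEC columns, match no described sample and were not used. Libraries numbered 5 occurred only in the senEC groups, and those numbered 3 only in mono-culture and control ECs. What these numbers mark cannot be told apart from the groups. Samples were grouped by their labels.

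Counts were tested with edgeR 4.0.16 (quasi-likelihood, TMM, all 12 libraries, no covariate) in R 4.3.3, for the 25873 genes with at least 10 counts in total. A gene was called at a Benjamini-Hochberg adjusted p under 0.05. Each SE was taken as the ratio of the log2 fold change to the root of edgeR's F. Log2 CPM for spreads between libraries added a pseudocount of 2. Alternatives were DESeq2 1.42.0, other size factors and filters, the 6 libraries compared alone, a replicate block, a length offset and leaving out each library. In a simulation of senECs vs control ECs on 24964 genes, 200 genes with high counts were given a 2-fold change. Of these, edgeR called 185, and it called 6 others. Smaller changes, such as those of the members, and an outlying library were not simulated, so that the power for them is not known. Python 3.11.15 made the summaries. Transcript lengths, overlaps and coding sequences came from GENCODE 29 (Ensembl 94, GRCh38), and promoters from RefSeq (GRCh38.p14). All 57169 distinct symbols matched GENCODE 29.

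Depth ranged from 15439836 to 22092600 counts per library. An exact permutation test of 3 against 3 libraries cannot reach the threshold, so that only the fit across genes was used. Members named are all of complex II, the highest and lowest of the other complexes by level per length or by fold change in the first 2 comparisons, any called, fixed isoform sets and ATP5IF1. Members and gene lists were chosen with earlier results of these data known. Genes named for groups that do not overlap, for an unadjusted p or as regulators or mitochondrial subunits were chosen after their values were seen.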

Additional observations from a re-analysis of the deposited data

How the results depend on the processing

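Members called by edgeR stayed at 0 of 44 in 5 of the 6 comparisons under every alternative. In senECs vs mono-culture 0 became 1 with DESeq2 (ATP5MF), 2 with all genes that have a count, 1 with the replicate block, 9 with the block and numbers 3 and 5 joined, and 2 with a length offset and the block. Over all genes, the calls in that comparison were 80 of 25873 as reported, 347 with DESeq2, 588 of 34767 with all genes that have a count, 709 with the block, 1407 with the joined block and 790 with the offset and the block. Leaving out 1 library gave 0 to 1 (1, ATP5MF, without senEC library 1, where 260 of 25873 genes were called). For the other 5 comparisons it gave 0 to 0. The median log2 fold change of members, leaving out 1 library, ranged from 0.08 to 0.31 in senECs vs control ECs, -0.25 to -0.02 in EGCG-treated senECs vs senECs, -0.0047 to 0.12 in EGCG-treated senECs vs control ECs, -0.07 to 0.06 in control ECs vs mono-culture, 0.06 to 0.30 in senECs vs mono-culture and -0.04 to 0.10 in EGCG-treated senECs vs mono-culture. Without senEC library 5 it moved by more than the replicate SD of 0.152 in senECs vs control ECs (0.084) and senECs vs mono-culture (0.062). No other alternative moved a median by that much.

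The replicate numbers were not treated as pairs, since the labels do not say what they mark and 4 of 14 correlations between the deviations of same-numbered libraries were 0.1 or less, all of number 2 (0.03 to 0.09). The 6 of number 1 ranged from 0.46 to 0.58, and those of number 3 and number 5 were 0.42 and 0.34. Libraries 3 and 5 of different groups correlated at 0.37 to 0.53. Whether the numbers mark shared cultures or runs was not tested. As a hint from the data, a library correlated best with its own number in 23 of 28 cases. The replicate block left the first 2 comparisons at 0 members called (medians 0.20 and -0.15) and gave 1 in senECs vs mono-culture. Members at an unadjusted p under 0.05 went from 13 to 18 (29 with numbers 3 and 5 joined) in senECs vs control ECs and from 2 to 18 (18) in EGCG-treated senECs vs senECs. The 9 called with the joined block in senECs vs mono-culture were CYC1, UQCR10, COX5B, COX6B1, COX7A2, COX8A, ATP5MD, ATP5MF and ATP5PD. With the length offset and the block, the median in senECs vs control ECs was 0.16, with 41 members higher and 14 at an unadjusted p under 0.05. Shares of all genes at that unadjusted p are not given for the block or the offset. With the block, counts over all genes in these 3 comparisons went from 0 to 153, 0 to 13 and 80 to 709.

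Fold changes of named members, none of them called, changed sign in 11 of 675 values outside the leave-one-out settings. With the length offset these were ATP5S (0.10) and UQCRHL (-0.04) in senECs vs control ECs, COX5A (0.0034) in EGCG-treated senECs vs senECs and COX7A2L (-0.018) in senECs vs mono-culture. With the offset and the block they were ATP5S (0.00060), UQCRC2 (-0.0093), UQCRHL (-0.044), COX5A (0.0096), COX7A2L (-0.027) and SDHD (-0.035) in the same comparisons (UQCRC2 in senECs vs control ECs, SDHD in senECs vs mono-culture). With at least 10 counts in every library UQCRHL was at -0.01 in senECs vs control ECs. Leaving out 1 library changed the sign in 30 of 900 values, and the ranges of these log2 fold changes follow. In EGCG-treated senECs vs senECs, these were ATP5F1B (-0.11 to 0.030), ATP5F1E (-0.45 to 0.094), ATP5S (-0.039 to 0.26), COX5A (-0.11 to 0.11), COX8A (-0.21 to 0.0057), SDHA (-0.11 to 0.0079), SDHD (-0.17 to 0.074), UQCRB (-0.42 to 0.057) and UQCRC2 (-0.11 to 0.033). In senECs vs mono-culture, these were ATP5F1E (-0.056 to 0.49), COX4I1 (-0.0051 to 0.24), COX7A2L (-0.041 to 0.13), COX7C (-0.0071 to 0.36), SDHC (-0.031 to 0.092), SDHD (-0.075 to 0.17) and UQCRB (-0.055 to 0.42). In senECs vs control ECs, these were ATP5MD (-0.012 to 0.53), ATP5S (-0.18 to 0.12), SDHD (-0.012 to 0.22), UQCRC2 (-0.036 to 0.086) and UQCRHL (-0.099 to 0.11). The cause of these changes was not tested. With 3 libraries per group the median SE of a member was 0.131 on the log2 scale, which limits what could be detected.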
